A study of Arabidopsis thaliana with 12 samples.

Results

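Class III peroxidases are secreted haem enzymes of plants that use hydrogen peroxide to oxidise phenolic and protein substrates in the cell wall. By cross-linking extensins, monolignols and other wall components they stiffen the wall, and by making reactive oxygen species they can also loosen it. In Arabidopsis roots they are known for work in root hair growth, in lignified xylem and the Casparian strip, and in the transition from cell division to differentiation. Of 60 listed class III peroxidase loci, 49 had a probe set with a gene name on the Affymetrix ATH1 array, and these were covered by 46 probe sets of 22746 non-control probe sets in all. Members were taken by locus, with no filter on expression. Of the 46 probe sets, 43 belonged to 1 locus each and 3 were each shared by a pair of loci.

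The arrays measured roots of 7-day-old Arabidopsis thaliana seedlings in 4 groups of 3, with 1 RNA sample per array. The ara1OX group carried 35S:Ara1YFP, ARABIDILLO-1 fused to yellow fluorescent protein under a viral promoter that is active in most cell types, in the Col-0 background, and Col-0 was its wild type. The ara1/2mut group was the mutant of ARABIDILLO-1 and ARABIDILLO-2 in the Col-3 background, and Col-3 was its wild type. ARABIDILLO proteins, which combine an F-box with Armadillo repeats, are known to promote the branching of roots, and the study looked for genes that depend on them. The labels do not give the mutant alleles, nor whether ara1OX was 1 line or several. They number the replicates without naming separate cultures, so p-values measure the spread between these samples and that spread may be technical. All samples had 2 days of stratification at 4 °C. All seedlings were grown alike on 0.5-strength medium with 1% agar, at 24 °C and in days of 16 h light.

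Values are MAS5 signals, the brightness of a probe set on a linear scale, and arrays are given in the order of replicates 1, 2 and 3. All arrays had the same trimmed mean. Signals of different probe sets are not compared as transcript amounts, since probes differ in how strongly they bind. The mean correlation of an array with the others of its group, across probe sets, lay between 0.856 and 0.877 in ara1OX, between 0.911 and 0.916 in Col-0, between 0.896 and 0.905 in ara1/2mut and between 0.911 and 0.925 in Col-3. On ara1OX replicate 3 the spike-in probe sets stood at 5.68 times the level on the median array. The probe sets of ARABIDILLO-1 and ARABIDILLO-2 are not analysed here, so the labels were not checked by the targeted genes. Of 8 root markers, 1 had a named probe set, PYK10, which encodes a root beta-glucosidase, with signals from 4080 to 9953. Of 8 shoot markers, 3 had one (RCA, LHCB4.1 and PRK), and their summed signal ran from 184.6 to 233 in ara1OX, from 170.2 to 246 in Col-0, from 192 to 351 in ara1/2mut and from 199 to 255 in Col-3. None was at 0. Of 8 endodermis markers none had a named probe set.

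A total of 7 probe sets exceeded 1000 on every one of the 12 arrays, and 23 exceeded 100 on every array, the 7 included. Another 16 stayed under 100 on every array, and 7 lay on both sides of 100. The 40th percentile of all probe sets by mean log2 signal corresponded to a signal of 22.4, which 35 of the peroxidase probe sets reached and 11 did not. Signals that low carry little information in MAS5 data, and the values of those 11 are given with that limit.

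**Figure D1:**
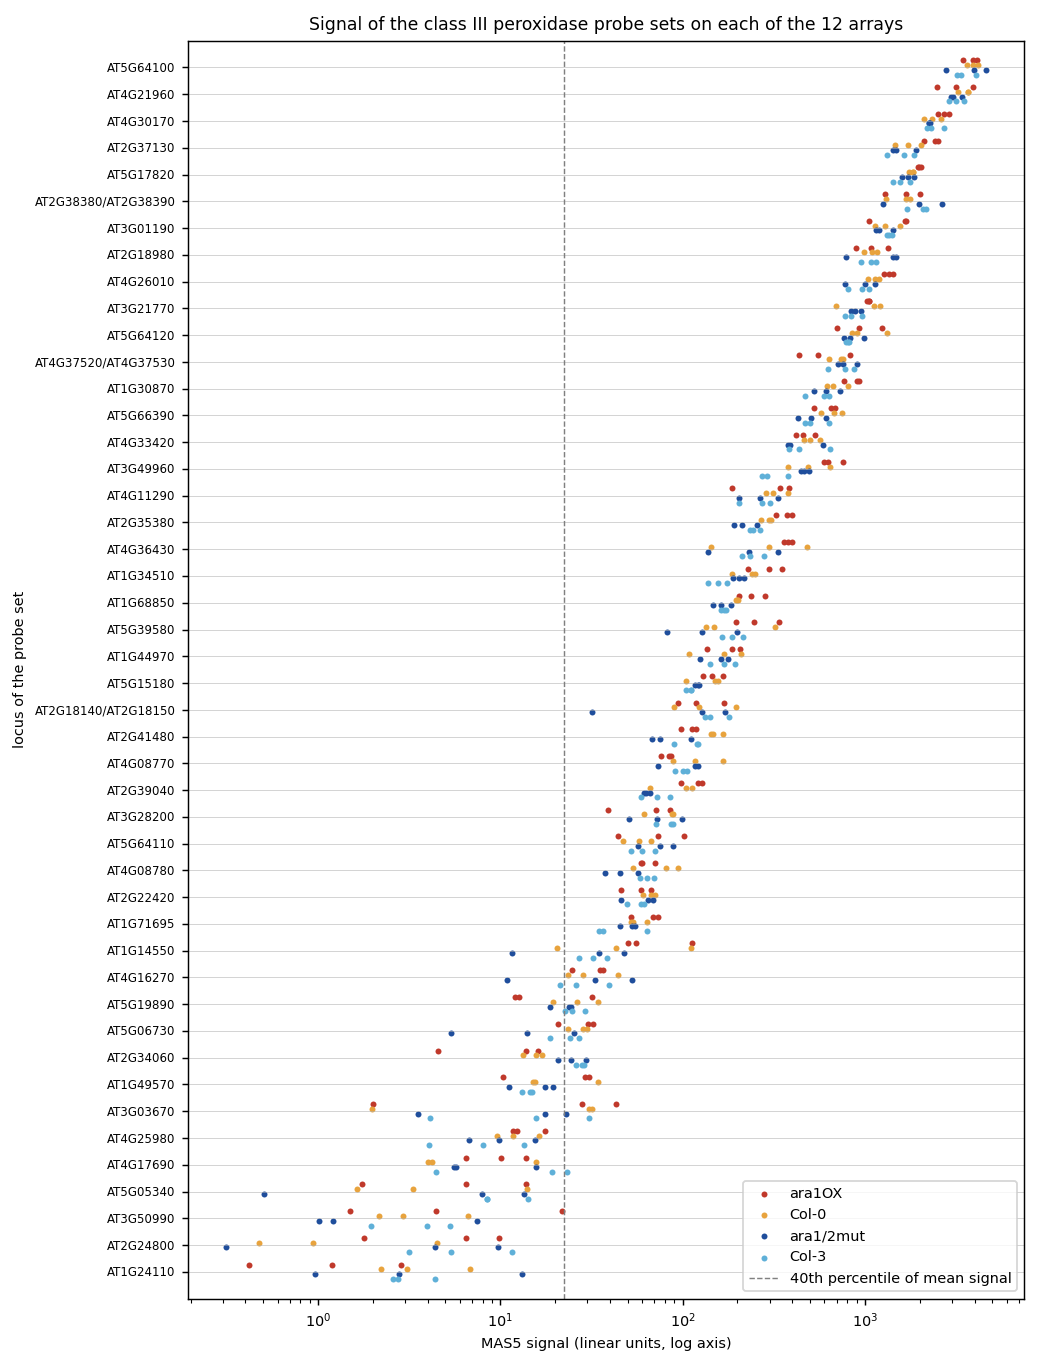
MAS5 signal on a log axis for the 46 class III peroxidase probe sets, each with 12 points, 1 per array, coloured by group, and ordered by mean log2 signal. The dashed line marks the 40th percentile of the mean signal of all probe sets, 22.4, and the points of the 11 probe sets below it scatter widely.

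The 7 probe sets above 1000 on every array were those of AT5G64100, PRXR1 (AT4G21960), AT4G30170, AT2G37130, AT5G17820, AT3G01190 and the neighbours AT2G38380 and AT2G38390, which share 1 probe set. AT5G64100, which takes part in root hair growth at low temperature, had signals of 4138, 3925 and 3458 in ara1OX and 3898, 4161 and 3609 in Col-0. Its signals were 4639.9, 3954 and 2786 in ara1/2mut and 3361, 4067 and 3192 in Col-3. The groups overlapped in both comparisons, and the widest range lay within ara1/2mut. PRXR1 averaged 3196 ± 712 in ara1OX and 3539 ± 252 in Col-0 (SD, n = 3 here and below), with 3132 ± 237 in ara1/2mut and 3179 ± 314 in Col-3. AT4G30170 averaged 2715 ± 192 in ara1OX, 2354 ± 257 in Col-0, 2256 ± 15.8 in ara1/2mut and 2404 ± 282 in Col-3. Its highest array was 1.38 times its lowest, the smallest such ratio among the 35 probe sets at or above the 40th percentile. AT3G01190 averaged 1468 ± 355 in ara1OX, 1327 ± 208 in Col-0, 1259 ± 149 in ara1/2mut and 1362 ± 40.5 in Col-3. The shared probe set of AT2G38380 and AT2G38390 averaged 1658 ± 366 in ara1OX, 1589.8 ± 247 in Col-0, 1973 ± 701 in ara1/2mut and 1987 ± 258 in Col-3, and it cannot tell the 2 transcripts apart. In none of these 7 did any comparison have an adjusted p below 0.742 in limma.

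Many of the listed loci lie side by side. The gene order of assembly TAIR10.1 holds 10 neighbouring pairs among the 60 loci, which involve 18 of them, and in 6 pairs both loci were measured. All 3 shared probe sets belong to such pairs: AT2G18140 with AT2G18150, AT2G38380 with AT2G38390, and AT4G37520 with AT4G37530. The run of AT5G64100, AT5G64110 and AT5G64120 has a probe set for each gene. Over the 12 arrays AT5G64100 ranged from 2786 to 4639.9, AT5G64110 from 44.3 to 102, and AT5G64120 (PRX71), which stiffens walls under stress, from 704 to 1327. The log2 differences of the 3 neighbours were -0.02, 0.29 and -0.11 in ara1OX against Col-0, and 0.08, 0.26 and 0.09 in ara1/2mut against Col-3. The 95% confidence interval of each of these 6 differences held 0. The neighbours AT4G08770 (Prx37) and AT4G08780 also have separate probe sets, and are described below.

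The 11 probe sets below the 40th percentile were those of AT1G24110, AT2G24800, AT3G50990, PRX52 (AT5G05340), AT4G17690, AT4G25980, AT3G03670, AT1G49570, AT2G34060, AT5G06730 and AT5G19890. AT3G50990 (PER36), known from mucilage release of the seed coat, ranged from 1.01 to 21.9 over the 12 arrays. PRX52, known from stem lignification, ranged from 0.503 to 14.2 over the 12 arrays, and AT1G24110 from 0.416 to 13.2. The range was 4.03 to 23.2 for AT4G17690, 4.06 to 17.6 for AT4G25980, 1.97 to 43.2 for AT3G03670, 5.35 to 32.4 for AT5G06730 and 12.1 to 34.5 for AT5G19890. These signals lay on both sides of the 40th percentile or below it on every array. The largest differences of the family in ara1OX against Col-0, in either direction, came from these weak signals. AT2G24800 had a log2 difference of 1.94 (SE 1.27) and AT1G24110 had -1.68 (SE 1.09). The intervals of both held 0, so neither size can be read as a change.

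In ara1OX against Col-0 no peroxidase probe set passed the test, which is a limma adjusted p under 0.05 over all 22746 probe sets, where 0.0176% of all probe sets passed. The smallest adjusted p in the family was 0.742. At an unadjusted p under 0.05, 4 of the 46 lay above Col-0 (8.70%, where 3.05% of all probe sets did) and 2 lay below it (4.35%, where 3.36% of all did). In a limma fit with no variance trend 0 of the 46 had such a p in either direction (6.28% of all did). Without Col-0 replicate 1 it was 2 of the 46 (4.35%, against 5.16% of all). On 5 probe sets every ara1OX array exceeded every Col-0 array (10.9%, against 5.86% of all probe sets), and on 2 every ara1OX array was below (4.35%, against 5.26%). The log2 difference was above 0 for 30 of 46 (65.2%, against 50.6% of all), with a median of 0.12, where the median of all probe sets was 0.00. Without Col-0 replicate 1 that median became -0.04 with 20 of 46 above 0, so the lean of the family towards ara1OX rested on that array. Leaving out 1 array moved the log2 difference by over 1.5 times, or turned its sign, for 40 of 46 members in ara1OX against Col-0, 42 in ara1/2mut against Col-3 and 38 in Col-3 against Col-0. The share of all probe sets that moved as much was not computed, so these counts do not set the family apart.

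**Figure D2:**
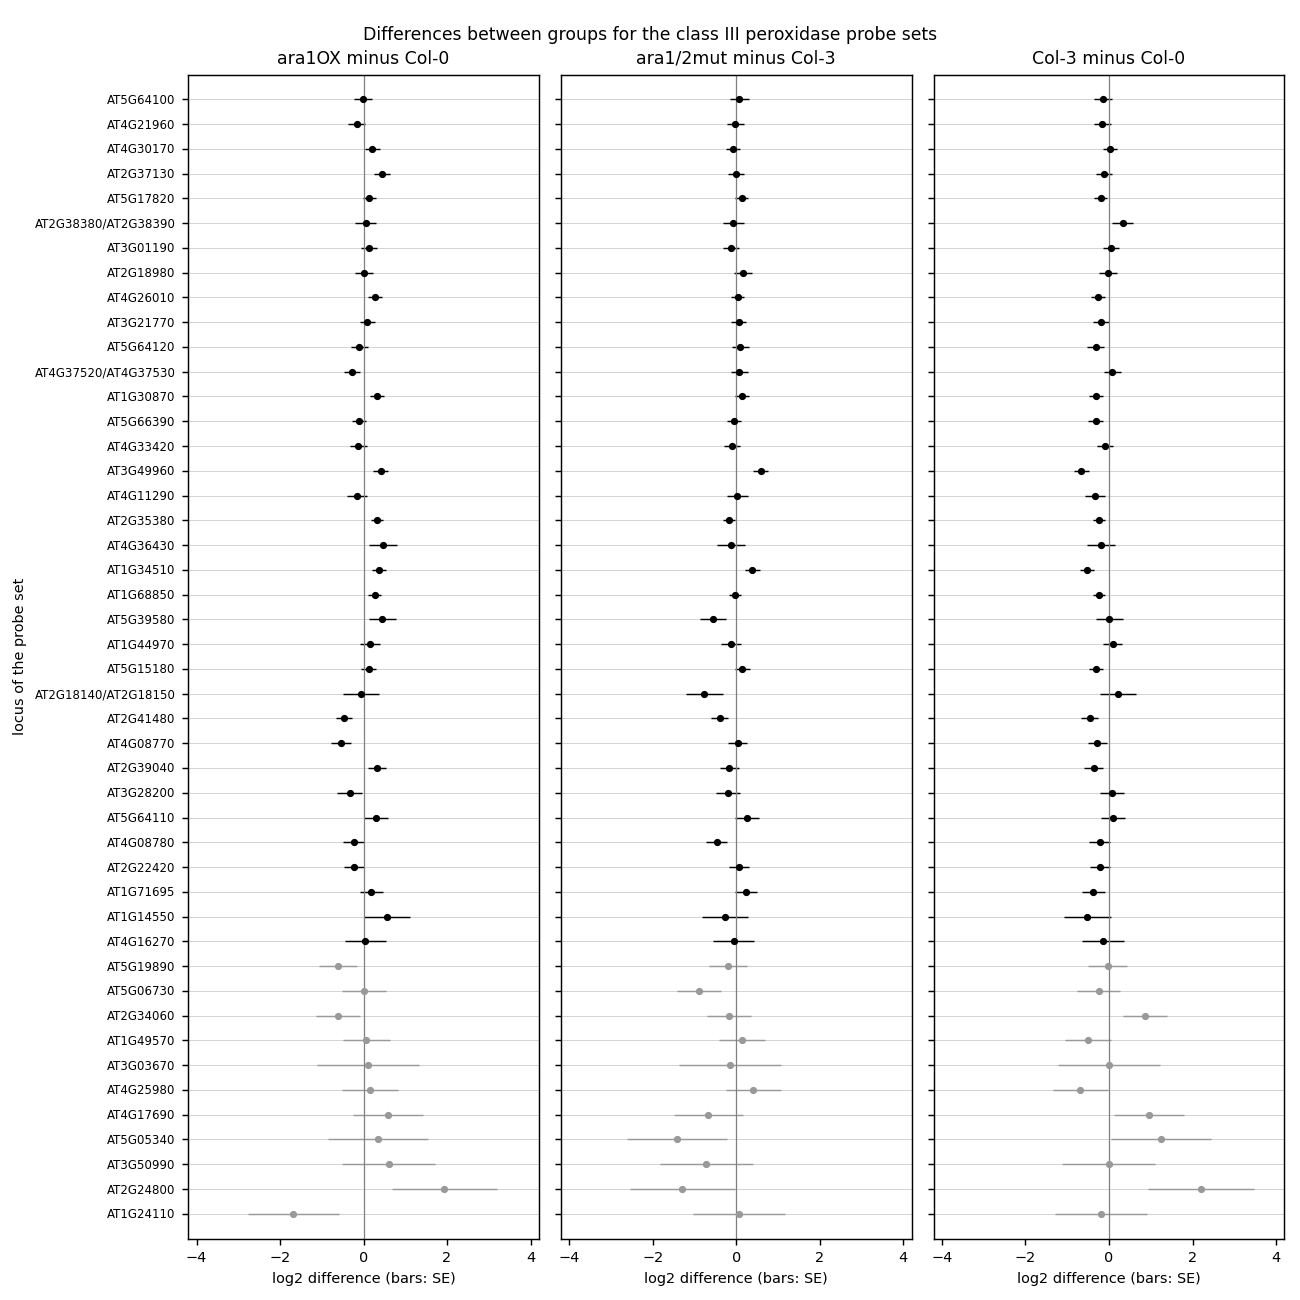
Log2 differences with their SE for the 46 peroxidase probe sets in 3 comparisons, ordered by mean signal as in the plot of signals by array. Black points are the 35 probe sets at or above the 40th percentile of signal and grey points the 11 below it; the black points stay between -0.76 and 0.59, and none passed the test.

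Outside the root hair list, 3 probe sets had every ara1OX array above Col-0. AT2G37130, a peroxidase tied to lignin and to defence against fungi, had 2530.1, 2116 and 2409.7 in ara1OX, with Col-0 at 1462, 2027 and 1732. All 3 ara1OX arrays were above all 3 Col-0 arrays, with a log2 difference of 0.44 (SE 0.19, unadjusted p 0.0313, adjusted p 0.742). The unadjusted limma p was 0.136 without Col-0 replicate 1, and it stayed under 0.05 in 13 of 21 alternatives. AT2G35380 had 373, 323 and 397 in ara1OX, with Col-0 at 269.5, 299 and 307, and again the groups did not overlap. Its log2 difference was 0.32 (SE 0.14, unadjusted p 0.0415, adjusted p 0.755). Here the unadjusted limma p was 0.130 without ara1OX replicate 3, and it stayed under 0.05 in 12 of 21 alternatives. AT1G68850 had 204, 237 and 281 in ara1OX and 196, 202 and 199 in Col-0, with its lowest ara1OX array just above the highest of Col-0 and a log2 difference of 0.26 (SE 0.15), which became 0.15 without ara1OX replicate 3.

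On the other side, AT2G41480 (PRX25), which acts in lignin formation, had 113, 118 and 97.5 in ara1OX, with Col-0 at 146, 143 and 166. Every ara1OX array was below every Col-0 array, with a log2 difference of -0.47 (SE 0.20, unadjusted p 0.0313, adjusted p 0.742). Prx37, a peroxidase of vascular tissue whose overexpression dwarfs the plant, had 86.3, 84.1 and 76.6 in ara1OX, with Col-0 at 88.6, 166 and 117. Its log2 difference of -0.55 (SE 0.23, adjusted p 0.744) became -0.31 without Col-0 replicate 2, the highest of its 12 arrays. Its neighbour AT4G08780 had 59.6, 59.5 and 70.4 in ara1OX and 53.5, 81.2 and 94.6 in Col-0, groups that overlapped, with -0.24 (SE 0.25).

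In ara1/2mut against Col-3 no peroxidase probe set passed either, and 0.00% of all probe sets did. The smallest adjusted p in the family was 0.9999. An unadjusted p under 0.05 was found for 2 of 46 above Col-3 (4.35%, against 1.49% of all) and 0 below it (against 1.85% of all). Groups did not overlap with ara1/2mut above Col-3 on 3 probe sets (6.52%, against 4.61%) and with ara1/2mut below on 1 (2.17%, against 4.14%). The log2 difference was above 0 for 19 of 46 (41.3%, against 50.2% of all), with a median of -0.06, which became 0.00 without Col-3 replicate 1. The 3 probe sets with ara1/2mut above were those of AT3G49960 and AT1G34510, described with the root hair peroxidases, and of AT5G15180, with a log2 difference of 0.15 (SE 0.17). AT5G15180 had 117, 122 and 122 in ara1/2mut, against 104, 111 and 111 in Col-3, so the gap between the groups was small. The 1 below was AT4G08780, with 37.5, 45.4 and 56.7 in ara1/2mut, against 64.0, 69.3 and 58.3 in Col-3. Its log2 difference of -0.47 (SE 0.25) had an adjusted p of 0.9999. Prx37 next to it had 72.9, 117 and 121 in ara1/2mut and 100.3, 106 and 91.2 in Col-3, with a log2 difference of 0.03 (SE 0.23). PRX25 had 68.3, 111 and 75.0 in ara1/2mut and 120.0, 89.7 and 122 in Col-3, which overlapped, with a log2 difference of -0.40 (SE 0.20, unadjusted p 0.0605) that became -0.26 without ara1/2mut replicate 1 and -0.61 without ara1/2mut replicate 2.

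When the wild types were compared, Col-3 with Col-0, no peroxidase probe set passed (0.00% of all did), and the smallest adjusted p was 0.889, that of AT3G49960. An unadjusted p under 0.05 was found for 0 of 46 above Col-0 (against 2.40% of all) and 3 below it (6.52%, against 2.15%). Every Col-3 array was above every Col-0 array on 1 probe set (2.17%, against 5.95%), and below on 7 (15.2%, against 5.74%). The log2 difference was above 0 for 14 of 46 (30.4%, against 52.2% of all), with a median of -0.19, which lay between -0.23 and -0.09 when any 1 of these 6 arrays was left out and was -0.09 without Col-0 replicate 2. The 7 with Col-3 below were AT3G49960, AT1G34510, PRX25, AT2G35380, AT1G68850, PRX71 and AT1G49570, the last of them below the 40th percentile of signal. PRX25 had a log2 difference of -0.47 (SE 0.20, unadjusted p 0.0323), AT2G35380 had -0.24 (SE 0.14) and AT1G68850 had -0.25 (SE 0.15). PRX71 had 784, 809 and 818 in Col-3, against 847, 1327 and 900.3 in Col-0, and the difference of -0.32 (SE 0.20) became -0.12 without Col-0 replicate 2. The 1 probe set with Col-3 above was AT2G34060, with 26.1, 28.9 and 28.0 in Col-3 and 13.3, 15.7 and 17.0 in Col-0, signals on both sides of the 40th percentile.

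**Figure D3:**
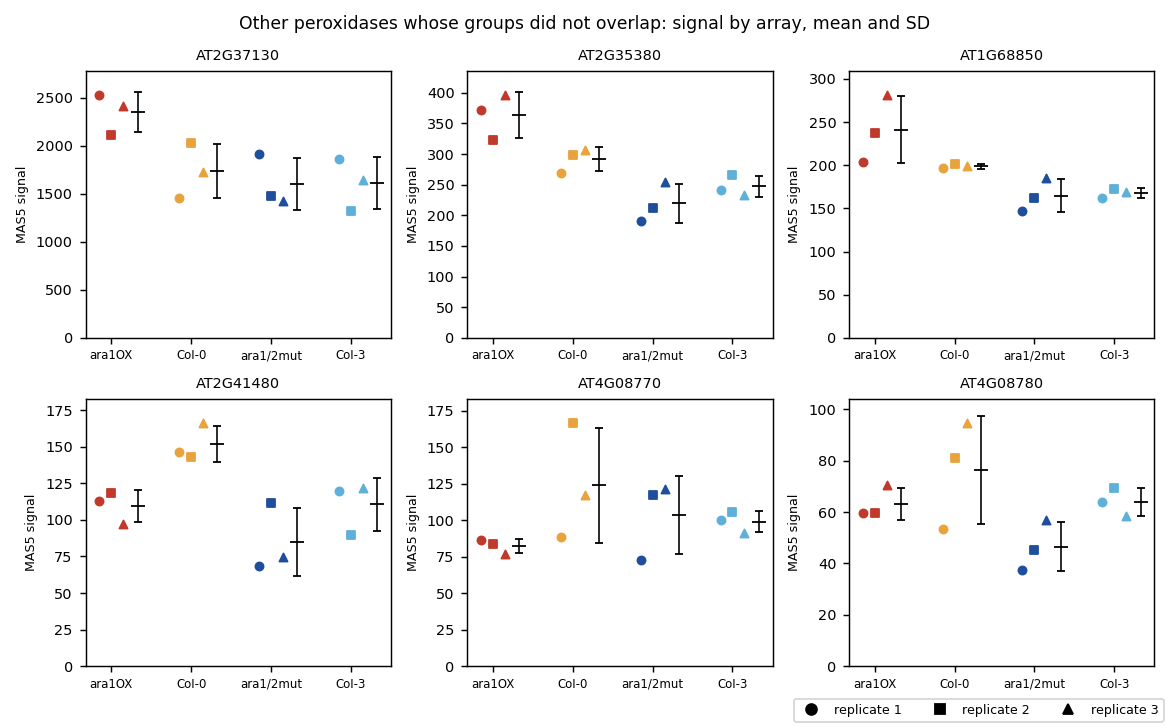
MAS5 signal of 6 peroxidases outside the root hair list whose groups did not overlap in at least 1 comparison, by group and replicate, with the mean and SD beside the points. AT2G37130 and AT2G35380 are highest in ara1OX, and AT2G41480 and AT4G08770 highest in Col-0.

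The ara1OX difference minus the ara1/2mut difference was tested in the same fit. No peroxidase probe set passed, where 0.00879% of all probe sets did, and 2 of 46 had an unadjusted p under 0.05 (4.35%, against 5.27% of all). One was AT2G35380, with 191, 213 and 255 in ara1/2mut and 242, 266 and 233 in Col-3, a log2 difference of -0.18 (SE 0.14) set against 0.32 in ara1OX. The difference between the lines was 0.50 (SE 0.20, unadjusted p 0.0254, adjusted p 0.928). The other was AT5G39580, a root hair peroxidase with log2 differences of 0.45 in ara1OX and -0.55 in ara1/2mut (SE 0.32 for both). Without 1 array these ran from 0.22 (Col-0 replicate 1) to 0.85 (Col-0 replicate 2) in ara1OX, and from -0.87 (ara1/2mut replicate 3) to -0.23 (ara1/2mut replicate 1) in ara1/2mut. The difference between the lines was 1.00 (SE 0.45, unadjusted p 0.0384, adjusted p 0.928). Neither kept an unadjusted limma p under 0.05 in every alternative. Such a p was found for 0 of 46 without ara1OX replicate 3 (5.47% of all), without Col-3 replicate 2 (5.05%) and with no variance trend (5.16%).

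Of the 10 loci listed for root hairs, 7 had a probe set. AT4G26010 takes part in root hair growth, as do AT5G39580 and AT5G64100 at low temperature, and AT1G30870, AT1G34510, AT3G49960 and AT5G17820 are known as transcripts of root hair cells. In roots as a whole, fewer hair cells and less RNA per hair cell cannot be told apart. None of the 7 passed in any comparison. The median of their log2 differences in ara1OX was 0.32, with 6 of 7 above Col-0 (0.00 for all probe sets). In ara1/2mut 6 of 7 lay above Col-3, with a median of 0.13 (0.00 for all). In Col-3 6 of 7 lay below Col-0, with a median of -0.26 (0.02 for all). In these 3 comparisons 50.6%, 50.2% and 52.2% of all probe sets lay above 0, and 65.2%, 41.3% and 30.4% of the whole family. Leaving out any 1 array of a comparison moved the medians of the root hair list within 0.22 to 0.40, 0.06 to 0.18 and -0.35 to -0.15. The low values of Col-3 enter both of the last 2 comparisons, which share its 3 arrays. In the same way the 3 Col-0 arrays enter both ara1OX against Col-0 and Col-3 against Col-0.

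AT3G49960 had 754, 599 and 624 in ara1OX and 489, 380.1 and 641 in Col-0, with 444, 464 and 492 in ara1/2mut and 377, 274 and 291 in Col-3. All 3 Col-3 arrays were below every other array of the 12. The log2 difference was 0.59 (SE 0.18, unadjusted p 0.00442, adjusted p 0.9999) in ara1/2mut against Col-3. It was -0.66 (SE 0.18, unadjusted p 0.00174, adjusted p 0.889) in Col-3 against Col-0, and the ara1/2mut mean of 467 ± 24.0 lay beside a Col-0 mean of 503 ± 131. In ara1OX against Col-0 it was 0.41 (SE 0.18, unadjusted p 0.0332), with groups that overlapped through Col-0 replicate 3, and it became 0.23 without Col-0 replicate 2.

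AT1G34510 had 351, 229 and 299 in ara1OX and 186, 250.2 and 239 in Col-0, with 188, 203 and 219 in ara1/2mut and 138, 175 and 156 in Col-3. Its 3 Col-3 arrays too were below every other array. The log2 difference was 0.37 (SE 0.17) in ara1OX against Col-0, 0.38 (SE 0.17) in ara1/2mut against Col-3 and -0.52 (SE 0.17, unadjusted p 0.00765, adjusted p 0.9997) in Col-3 against Col-0. The ara1OX difference became 0.23 without ara1OX replicate 1 and 0.24 without Col-0 replicate 1. With array weights the Col-3 difference had an adjusted p of 0.224, the lowest of any peroxidase in the alternatives tried for that comparison.

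AT4G26010 had 1427, 1265 and 1363 in ara1OX, with Col-0 at 1045, 1133 and 1199, groups that did not overlap. Its log2 difference was 0.26 (SE 0.16, adjusted p 0.822). In ara1/2mut it had 773, 1139.6 and 996, against 1057, 965 and 808 in Col-3, which overlapped with a log2 difference of 0.03 (SE 0.16). AT1G30870 had 902, 772 and 933 in ara1OX and 665, 620.2 and 809 in Col-0, with a log2 difference of 0.32 (SE 0.17). It had 609, 528 and 727 in ara1/2mut and 638, 468 and 593 in Col-3, with 0.13 (SE 0.17). AT5G64100 was the 1 of the 7 below 0 in ara1OX, at -0.02, with a 95% confidence interval from -0.49 to 0.45.

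**Figure D4:**
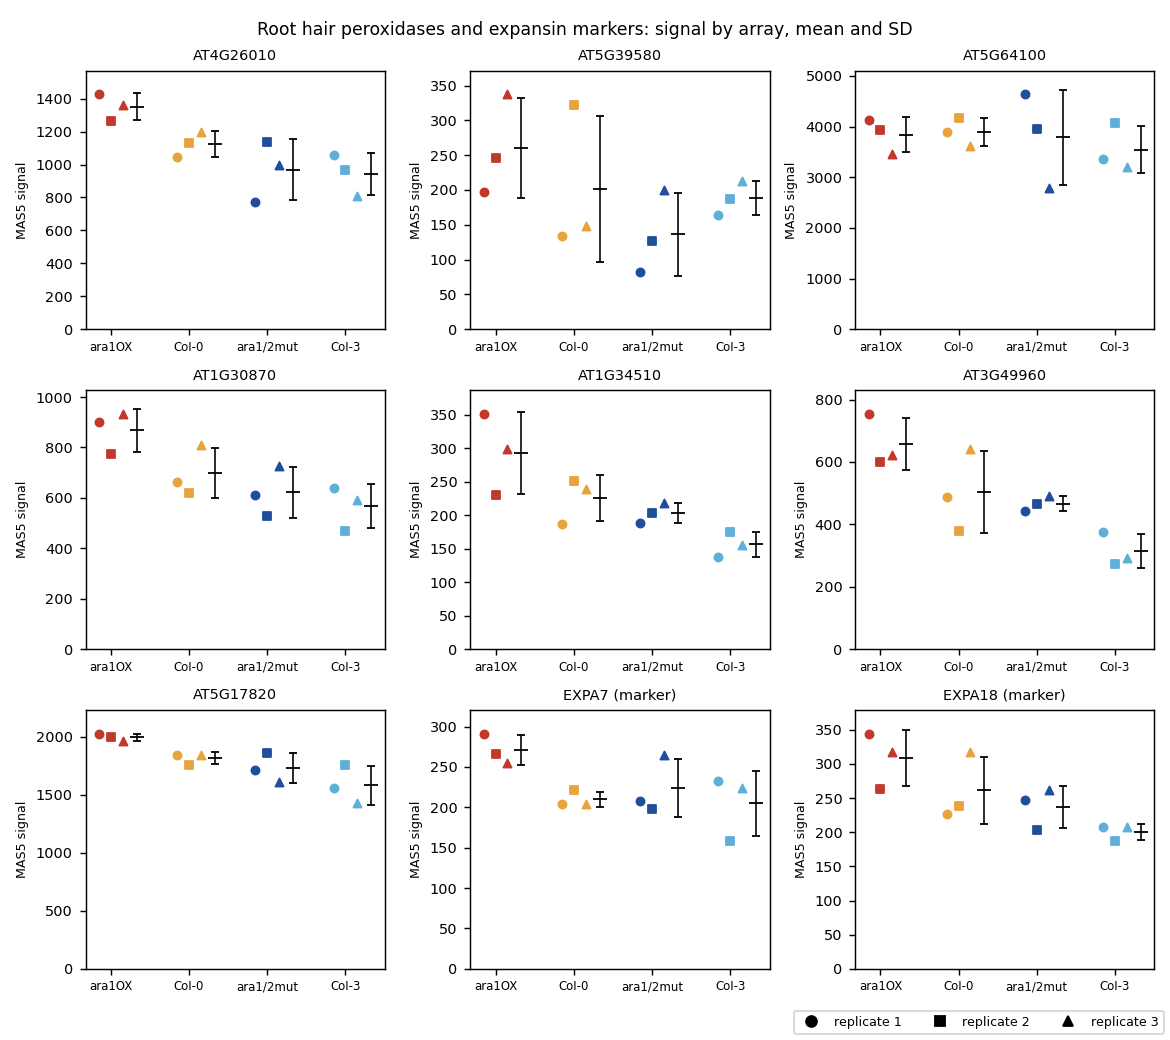
MAS5 signal of the 7 measured root hair peroxidases and of the root hair expansins EXPA7 and EXPA18, by group and replicate, with the mean and SD beside the points. AT3G49960 and AT1G34510 have all 3 Col-3 arrays below all others, while AT5G64100 shows no such order.

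Of 10 root hair markers outside the peroxidases, EXPA7 and EXPA18, expansins that loosen the wall of growing hairs, had a named probe set. Their summed signal ran from 529 to 635 in ara1OX and from 431 to 522 in Col-0, with 401 to 526 in ara1/2mut and 346 to 440 in Col-3. EXPA7 had a log2 difference of 0.37 (SE 0.16) in ara1OX against Col-0, where its groups did not overlap, and 0.13 (SE 0.16) in ara1/2mut against Col-3. EXPA18 had a log2 difference of 0.25 in ara1OX, of 0.24 in ara1/2mut, and of -0.37 between Col-3 and Col-0, where its groups did not overlap (SE 0.16 for each). In these 3 comparisons of groups both markers had the sign of AT3G49960 and AT1G34510, with EXPA7 at -0.05 (SE 0.16) in Col-3 against Col-0, and neither marker passed. AT4G26010, AT1G30870 and AT5G17820 had these signs too. AT5G39580 had the other sign in ara1/2mut (-0.55, SE 0.32) and in Col-3 against Col-0 (0.01, SE 0.32). AT5G64100 had it in ara1OX (-0.02, SE 0.22). Apart from the -0.55, these values were far smaller than their SE. Col-3 against Col-0 shares arrays with both other comparisons, so the signs are not independent. In the difference between the lines EXPA7 had 0.23 (SE 0.23) and EXPA18 0.01 (SE 0.23). AT3G49960 had -0.17 (SE 0.25) there and AT1G34510 -0.01 (SE 0.24). None of these values exceeded its SE, so their signs cannot be read as opposed. Of the 7 root hair peroxidases 4 lay above 0 in that difference. The part of the share of hair cells in the peroxidase values was not tested.

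UPBEAT1 (UPB1) is a transcription factor that represses peroxidase genes where root cells stop dividing, and AT4G11290, AT4G16270 and AT5G17820 are among its known targets. UPB1 itself had signals of 135, 131 and 135 in ara1OX, with Col-0 at 64.4, 146 and 129.7, and 118, 117 and 104 in ara1/2mut, against 105, 95.5 and 110.3 in Col-3. The ara1OX difference of UPB1 was 0.32 and the ara1/2mut difference 0.13 on the log2 scale (SE 0.23 for both), and 1 Col-0 array was low. AT5G17820 had 2025, 1993 and 1962 in ara1OX, with Col-0 at 1844, 1755 and 1842, so its groups did not overlap, but the gap was small, with a log2 difference of 0.14 (SE 0.15). In ara1/2mut it had 1716, 1861 and 1606, against 1554, 1759 and 1429 in Col-3, with 0.13 (SE 0.15). Its spread within groups was the smallest of the family, an SD of 0.10 on the log2 scale, and the 95% confidence intervals were -0.19 to 0.46 and -0.19 to 0.45. AT4G11290 had log2 differences of -0.16 (SE 0.24) and 0.03 (SE 0.24). AT4G16270, which also cross-links extensins in anthers, had 0.04 and -0.07 (SE 0.50 each).

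Of 10 loci listed for lignin and the Casparian strip, 7 had a probe set, and none passed in any comparison. The median of their log2 differences in ara1OX was -0.11, with 2 of 7 above Col-0. In ara1/2mut 2 of 7 lay above Col-3, with a median of -0.06, and in Col-3 1 of 7 lay above Col-0, with a median of -0.22. Of all probe sets 50.6%, 50.2% and 52.2% lay above 0 in these comparisons. PRX52 is on this list, with signals below the 40th percentile on every array. Its log2 differences were 0.35 in ara1OX, -1.41 in ara1/2mut and 1.25 in Col-3 against Col-0 (SE 1.19 each). It was the 1 above Col-0 in Col-3 and 1 of the 2 above Col-0 in ara1OX. Leaving out 1 array moved the ara1OX median within -0.21 to -0.04 and the Col-3 median within -0.28 to -0.12. In ara1/2mut it turned the direction: the median was 0.05 with 5 of 7 above without ara1/2mut replicate 2, and 0.08 with 4 of 7 above without Col-3 replicate 1. AT2G37130 and PRX25, both described above, stood at the 2 ends of this list in ara1OX. PRX72 (AT5G66390), which acts in lignification, had 654, 681 and 525 in ara1OX and 578, 678 and 749 in Col-0, with 504, 431 and 610.3 in ara1/2mut and 469.6, 639 and 501 in Col-3. Its groups overlapped throughout, and its log2 difference was -0.11 (95% confidence interval -0.47 to 0.25) in ara1OX and -0.06 (-0.42 to 0.30) in ara1/2mut. AT4G33420, a peroxidase of xylem vessels, had log2 differences of -0.12 (SE 0.20) and -0.10 (SE 0.20). AT2G22420, which acts in lignified tissues, had -0.22 (SE 0.24) and 0.06 (SE 0.24), at signals from 45.8 to 70.5. PRX71 had -0.11 (SE 0.20) and 0.09 (SE 0.20).

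Spread within groups was set beside that of all probe sets at or above the 40th percentile, which were not matched to the family by signal. The median SD within groups was 0.27 on the log2 scale for the 35 peroxidase probe sets at or above the 40th percentile and 0.28 for all such probe sets. The members with the widest spread among these 35 follow, and AT1G14550 and AT4G16270 had single arrays below the signal of 22.4. AT1G14550 had 50.4, 55.3 and 113 in ara1OX and 20.5, 111 and 43.2 in Col-0, with 11.6, 34.8 and 47.9 in ara1/2mut and 27.1, 32.1 and 38.7 in Col-3. Its ara1/2mut replicate 1 and Col-0 replicate 1 were below that level, so the size of its range is uncertain. AT4G36430 had 401, 361 and 380.1 in ara1OX and 143, 483 and 299 in Col-0, with 138, 334 and 232 in ara1/2mut and 212, 235 and 280.0 in Col-3. The 3 ara1OX arrays were close together, and Col-0 replicates 1 and 2 lay on both sides of them. AT5G39580 had 197, 247 and 338 in ara1OX and 135, 322 and 148 in Col-0, with 82.1, 127 and 199.5 in ara1/2mut and 164, 187 and 213 in Col-3.

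In all 3 of these, in AT4G16270, and in the shared probe set of AT2G18140 and AT2G18150, ara1/2mut replicate 1 was the lowest of the 12 arrays and Col-0 replicate 2 the highest of Col-0. The shared probe set had 31.8, 127 and 170.5 in ara1/2mut and 142, 133 and 179 in Col-3, with a log2 difference of -0.76 (SE 0.44) that became -0.02 without ara1/2mut replicate 1 and -1.24 without ara1/2mut replicate 3. These 5 were picked for their spread, so their common pattern is a description. Over the whole family, ara1/2mut replicate 1 was the lowest of its group on 27 of 46 probe sets, against 35.8% of all probe sets, and Col-0 replicate 1 the lowest of its group on 29 of 46, against 34.8%. Col-0 replicate 2 was the highest of its group on 23 of 46, against 27.4%. The labels name no batch. Both ara1/2mut replicate 1 and Col-0 replicate 1 carry the same replicate number, and the labels do not say what that number stands for.

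**Figure D5:**
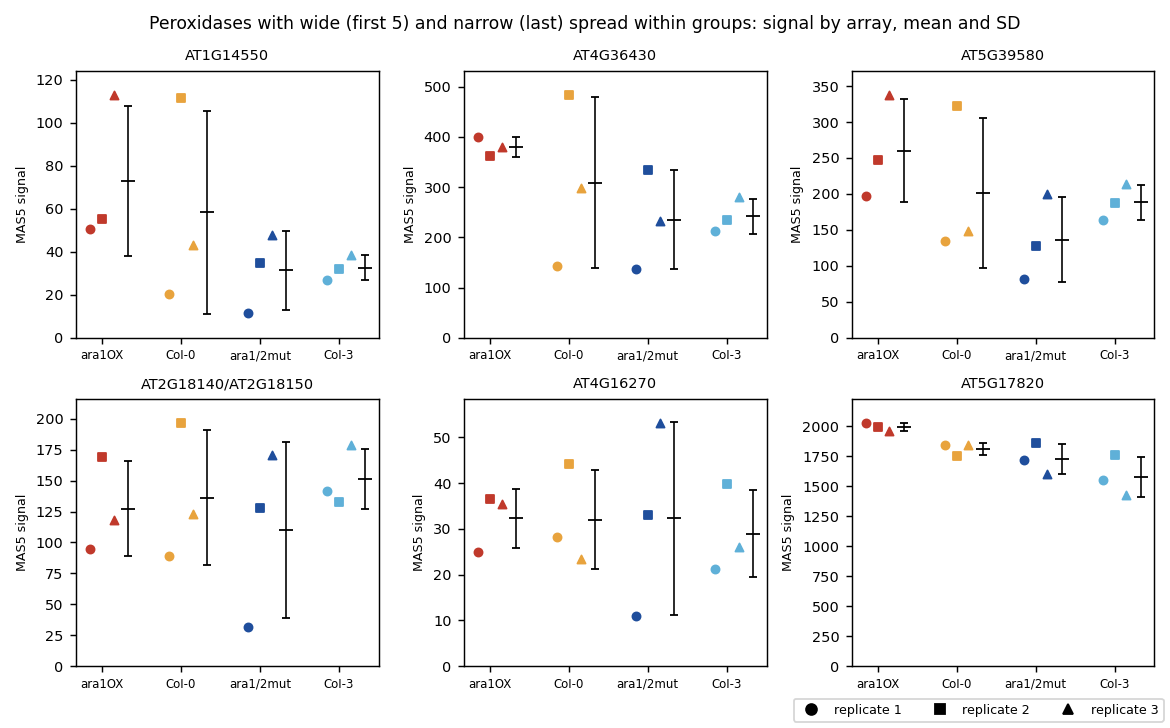
MAS5 signal of 5 peroxidase probe sets with wide spread within groups and of AT5G17820, with the narrowest, by group and replicate, with the mean and SD beside the points. In the first 5 panels Col-0 replicate 2 (square) is the highest array of Col-0 and ara1/2mut replicate 1 (circle) the lowest of all 12.

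By group means, ara1OX held the highest mean log2 signal of the 4 groups on 24 of 46 probe sets (29.4% of all probe sets). The lowest was held by ara1/2mut on 21 of 46 (23.4% of all), by Col-3 on 14 (23% of all) and by Col-0 on 4 (24% of all). This order mixes 2 backgrounds: the family's median log2 difference was -0.19 in Col-3 against Col-0 and -0.06 in ara1/2mut against Col-3. Without Col-0 replicate 1, ara1OX held the highest on 17 and Col-0 on 21. Without ara1/2mut replicate 1, ara1/2mut held the lowest on 19, and without any 1 array on 16 to 23. Which of ara1OX and Col-0 was highest more often thus depended on 1 Col-0 array.

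None of the members not yet described passed. AT2G39040 had 128, 121 and 98.4 in ara1OX and 66.2, 112 and 105 in Col-0, with a log2 difference of 0.32 (SE 0.22) that became 0.09 without Col-0 replicate 1. AT1G44970, which acts with AT4G16270 in anthers, had a log2 difference of 0.15 in ara1OX, and -0.13 in ara1/2mut (SE 0.23 for both). In the same order AT2G18980 had 0.00 and 0.17 (SE 0.21 each), and AT3G21770 had 0.09 and 0.06 (SE 0.18 each). AT3G28200 had -0.33 and -0.20 (SE 0.29 each), and AT1G71695 had 0.19 and 0.23 (SE 0.27 each). The shared probe set of AT4G37520 and AT4G37530 had 833, 551 and 435 in ara1OX and 736, 759.7 and 639 in Col-0, with a log2 difference of -0.28 (SE 0.20). That became -0.07 without ara1OX replicate 3 and -0.54 without ara1OX replicate 1, and the difference in ara1/2mut against Col-3 was 0.07.

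Other genes of the same chemistry were read from lists of peroxide producers with their regulator, other peroxide scavengers, and monolignol synthesis with laccases. These lists held 8, 11 and 20 genes, of which 1, 2 and 2 had a named probe set: UPB1, the chloroplast ascorbate peroxidase genes TAPX and SAPX, the monolignol gene HCT and CCR2, which encodes a cinnamoyl-CoA reductase. None of the 5 passed in any comparison, in either direction, and none had an unadjusted p under 0.05. HCT averaged 887 ± 223 in ara1OX and 755 ± 75.4 in Col-0, with a log2 difference of 0.21 (SE 0.20). SAPX averaged 218 ± 49.9 in ara1OX and 239 ± 42.9 in Col-0, with -0.14 (SE 0.23). In ara1/2mut against Col-3 HCT had 0.00 (SE 0.20) and SAPX -0.02 (SE 0.23). TAPX had signals from 1.75 to 19.1 over all arrays. For CCR2 the values were -0.16 in ara1OX and -0.02 in ara1/2mut, with an SE of 0.31 for both.

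The listed loci with no named probe set were AT1G05240, AT1G05250, RCI3 (AT1G05260), PER4 (AT1G14540), AT3G32980, PRXCA (AT3G49110), PRXCB (AT3G49120), PA2 (AT5G06720), RHS18 (AT5G22410), PER64 (AT5G42180) and RHS19 (AT5G67400). These 11 are not analysed here.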

How the data were processed

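RNA from roots was hybridised to Affymetrix ATH1 arrays, 3 per group in 4 groups. The deposited values are MAS5 signals, a linear intensity per probe set, made by the authors with MAS5 per the submitters' processing notes, with version and settings not given in the sources used here. Groups and replicate numbers came from the labels. Probe sets were matched to loci through the platform annotation, which names 1 gene for 13513 probe sets and several for 503, and names none for 8730 of the 22746 non-control probe sets. The 64 control probe sets were left out. Log2 signals with no pseudocount and no filter were fitted with limma 3.58.1 (lmFit, contrasts, eBayes with a variance trend) in R 4.3.3 over all 12 arrays, and p-values were adjusted by Benjamini-Hochberg over all 22746 probe sets. Precision is limited by the number of arrays. The fit was tested on simulated data. Alternatives were quantile normalization, median centring, array weights, a pseudocount of 16, filters at the 40th and 60th percentile, a fit with no variance trend, fits of the compared groups alone, the replicate number as a block, and leaving out each array. The text names members whose groups do not overlap, those with the highest and lowest mean signals, and those on role lists; the members with wide spread and those described last were added after their values were seen. The members and lists were chosen with earlier results of these data known. Neighbours were read from the gene order of assembly TAIR10.1.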

Additional observations from a re-analysis of the deposited data

How the results depend on the processing

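No peroxidase probe set had an adjusted p under 0.05 in limma in any comparison under any alternative. There were 21 alternatives for each comparison of 2 groups and 20 for the difference between the lines. At an unadjusted p under 0.05 there were 0 to 7 members in ara1OX (5.16% to 9.45% of all probe sets), 1 to 5 in ara1/2mut (2.87% to 5.58%), 2 to 9 in Col-3 against Col-0 (3.07% to 8.88%) and 0 to 4 for the difference between the lines (4.07% to 6.73%). The 9 came with array weights, 19.6% of members beside 8.88% of all. The 0 in ara1OX came from the fit with no variance trend, beside 6.28% of all. The smallest adjusted p of any member was 0.335 for AT1G34510 in ara1OX (without ara1OX replicate 2), 0.783 for AT3G49960 in ara1/2mut (replicate block) and 0.224 for AT1G34510 in Col-3 (array weights). AT3G49960 kept an unadjusted p under 0.05 in all 21 alternatives in ara1/2mut against Col-3 and in Col-3 against Col-0, as did AT1G34510 in Col-3 against Col-0. Without 1 array the family's median log2 difference ran from -0.04 to 0.16 in ara1OX, from -0.08 to 0.00 in ara1/2mut, from -0.23 to -0.09 in Col-3, and from -0.01 to 0.12 for the difference between the lines. With the replicate number as a block, 19 of all probe sets passed in ara1OX against Col-0, where 4 did without it. No peroxidase did. The block could not move the family's median, since every group has the same replicate numbers. Over the alternatives that did not leave out single arrays, that median ran from 0.05 to 0.12 in ara1OX. Residuals of same-numbered arrays correlated between -0.08 and 0.33. Arrays with different numbers were not compared in this way, so these values cannot decide whether the numbers mark a pairing. The main fit used no block. Signals below the 40th percentile limit what 11 of the 46 probe sets can show. Leave-one-out results for group order and role lists were chosen after seeing the data.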
